A study of Homo sapiens with 3 samples.

Results

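Both mature arms of the microRNA miR-210 were followed through clones of CAL-27, a long-established tumour line derived from tongue squamous cell carcinoma. The members are the 2 miRNAs listed as hsa-miR-210-3p and hsa-miR-210-5p, out of 1149 mature miRNAs in the table. The rule takes them by name, and it was set with earlier results of these data known. Small RNA sequencing gave 3 libraries, 1 for every group, so differences cannot be checked against replicates and carry no p-value. CC had no exposure. Cells of the library labelled Mock had 1 X-ray exposure of 2 Gy, according to the design text. RR, the radioresistant group, was cloned from single cells after 2 cycles of daily 2 Gy exposures for 5 days, with 2 weeks of recovery following each cycle. All 3 groups derive from the same parental line, and how many clones a library holds is not given in the labels. The treatment tags leave in doubt which of the irradiated libraries is which, since the tag with a 2 Gy dose is on RR and the tag with no dose is on Mock, so each direction below belongs to the library so labelled. No label names a low oxygen treatment.

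miR-210 is among the microRNAs most regularly induced by low oxygen. Its gene is switched on by hypoxia-inducible factor (HIF), which binds hypoxia response elements, short DNA sites built on the core ACGTG or GCGTG. Drosha and Dicer cut both arms from 1 hairpin, and an Argonaute protein keeps one strand, here mostly the 3p arm, as the guide that pairs with mRNAs through its seed. Among the targets described for miR-210-3p are ISCU, an assembly factor for iron-sulfur clusters, the ephrin EFNA3, the cell cycle factor E2F3 and the DNA repair protein RAD52. None of these mRNAs was measured here.

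The arms are shown with the seed (bases 2 to 8) in capitals, since it decides the targets, and the hairpin with both arms in capitals, 5p first.
miR-210-3p: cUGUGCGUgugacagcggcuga
miR-210-5p: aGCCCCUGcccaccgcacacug
MIR210 hairpin: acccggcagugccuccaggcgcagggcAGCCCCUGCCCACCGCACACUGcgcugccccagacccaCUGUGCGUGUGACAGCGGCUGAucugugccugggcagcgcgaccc
The sequences are RefSeq's on GRCh38.p14, and both arms are letter for letter those of the deposited table. Each arm has 22 bases. The seeds differ, and no other listed miRNA shares the seed of either arm. The closest listed miRNA has 5 mismatches to either arm over 18 or more bases.

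The hairpin lies on the minus strand of chromosome 11, at 568089 to 568198, with miR-210-3p at 568112 to 568133 and miR-210-5p at 568150 to 568171. GENCODE release 29 places it inside MIR210HG, a long non-coding RNA gene on the same strand at 565660 to 568457. It sits in an intron in all 4 annotated transcripts of that gene and overlaps 0 of their exons. A predicted fold of the hairpin has a free energy of -59.5 kcal per mol and joins the arms by 16 base pairs, with 17 of the 22 bases of miR-210-3p and 18 of those of miR-210-5p paired.

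As both arms come from 1 host transcript, the window around the start of MIR210HG is shown, from 250 bases before it to 50 after, read along the gene (RefSeq, GRCh38.p14, minus strand, chr11:568408-568707). Capitals mark matches to ACGTG or GCGTG on either strand.
MIR210HG promoter: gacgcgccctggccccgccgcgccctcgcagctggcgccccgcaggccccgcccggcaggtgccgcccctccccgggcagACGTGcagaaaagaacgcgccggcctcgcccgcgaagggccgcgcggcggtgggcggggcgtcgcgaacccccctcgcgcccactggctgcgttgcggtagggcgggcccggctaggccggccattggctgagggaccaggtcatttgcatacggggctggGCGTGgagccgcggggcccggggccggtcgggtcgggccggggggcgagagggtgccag
The window holds 1 ACGTG, which begins 170 bases before the start, and 1 GCGTG, which begins 9 bases before it. The start used is the outermost, at 568457. Other annotated transcripts start at 568420, 568408 and 568369, from which both matches lie further away. ACGTG occurs in 21.4% of 35116 promoter windows of the same length, GCGTG in 36.5% and either of them in 48.4%. These are matches of letters, and binding was not measured.

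Levels are in rpm, reads per 1000000 reads of a library total, which ran from 10473400 in RR to 10769990 in CC. Of that total the listed miRNAs took 20.5% in RR, 16.3% in CC and 23.2% in Mock. Intervals are exact 95% Poisson intervals and cover counting error only, because PCR copies were not marked by molecular identifiers. Summed markers of the labelled line were high in each library: the 4 squamous epithelial miRNAs came to 44114 rpm in RR, 37885 in CC and 28335 in Mock. The lower sum in Mock came from miR-205-5p, read 279426 times in CC and 150713 times in Mock. The other members of that list were level or higher in Mock than in CC, and miR-203a-3p added little to any sum. Mock stood apart in the measures that follow. Its reads leaned to miRNAs of low GC content, with a mean GC of 43.7% over miRNA reads against 47.8% in CC and 47.3% in RR. The 4 erythroid miRNAs summed to 408 rpm in Mock, 9.47 in CC and 12.2 in RR, with 2 of them at 0 in both RR and CC and 0 of them at 0 in Mock.

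miR-210-3p, the guide arm, was highest in RR, intermediate in CC and lowest in the library labelled Mock. It was read 1396 times in RR, which is 133 rpm (126 to 140). In CC it had 733 reads, or 68.1 rpm (63.2 to 73.2), and in Mock 401 reads, or 37.7 rpm (34.1 to 41.6). The 3 intervals do not overlap. Gaps beyond counting error are common in these data. Of the 208 miRNAs that serve as background below, 77.9% had a ratio interval excluding 1 in RR over CC. The share was 85.6% in Mock over CC and 85.1% in RR over Mock. How many of them keep all 3 levels apart was not counted. By level miR-210-3p took place 83 of 886 miRNAs with a read in RR, place 98 of 867 in CC and place 127 of 895 in Mock.

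miR-210-5p, the partner strand that is mostly discarded, was close in RR and CC and lowest in Mock. It had 197 reads in RR, 18.8 rpm (16.3 to 21.6), and 179 reads in CC, 16.6 rpm (14.3 to 19.2). Only 45 reads were found in Mock, which is 4.23 rpm (3.09 to 5.66). The intervals of RR and CC overlap, and that of Mock lies below both. miR-210-5p took place 173 in RR, 165 in CC and 275 in Mock. Both arms together came to 152 rpm in RR, 84.7 in CC and 41.9 in Mock.

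**Figure D1:**
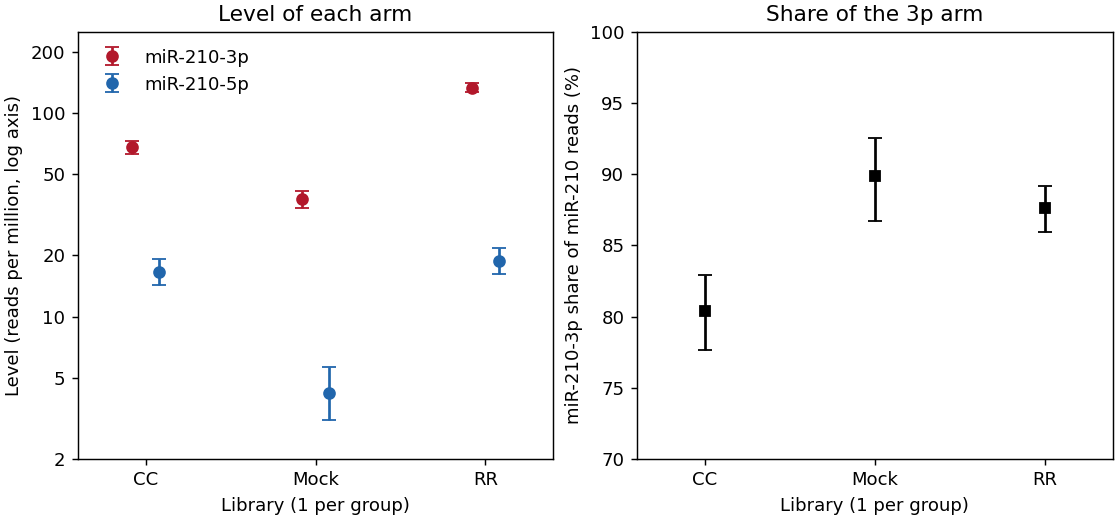
Left, level of miR-210-3p (red) and miR-210-5p (blue) in each library, in rpm on a log axis, with exact 95% Poisson intervals. Right, miR-210-3p as a percentage of the reads of both arms, with exact 95% binomial intervals on an axis from 70% to 100%. The 3p arm runs from 37.7 rpm in Mock to 133 in RR, the 5p arm is close in CC and RR, and the 3p share is lowest in CC.

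RR over CC sets radioresistant against untreated cells. miR-210-3p was 1.96-fold higher in RR (1.79 to 2.14), whereas miR-210-5p had a ratio of 1.13 (0.920 to 1.39), an interval that includes no change. Among the 208 miRNAs whose mean over the libraries reached 10 rpm, used here as the background, 77.9% had a ratio whose interval excluded 1, so an interval apart from 1 is common in this comparison. The size of the ratio was less common. On the log2 scale after adding 1 rpm, miR-210-3p stood at 0.96, the third highest of the 208, and miR-210-5p at 0.17, which is place 162 from the top. Only miR-3182 (1.21) and miR-550a-5p (1.18) were above miR-210-3p, and both were less abundant, with means of 30.8 and 28.4 rpm against 79.7. They are also the 2 miRNAs, 0.962% of the 208, that reached 2-fold in RR, a threshold that miR-210-3p missed and that its interval spans. In the other direction 0.481% reached it, and neither arm did.

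The median miRNA was itself higher in RR, by 0.36 on the log2 scale. Relative to that median miR-210-3p was higher by 0.60, and miR-210-5p was lower, at -0.19. Dividing the libraries by their median ratio gave a log2 ratio of 0.58 for miR-210-3p and -0.19 for miR-210-5p. When each library was scaled to its own miRNA reads they were 0.63 and -0.16. The 3p arm thus stayed above 0 on each scale, and the direction of the 5p arm turned with the scale.

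Mock over CC sets a single exposure against none. Both arms were lower in the library labelled Mock: miR-210-3p by 1.80-fold (1.60 to 2.04; ratio 0.554) and miR-210-5p by 3.93-fold (2.82 to 5.57; ratio 0.255). Of the 208 miRNAs, 85.6% had an interval that excluded 1, and 3.85% were lower in Mock by 2-fold or more. miR-210-5p was one of those 8, with a log2 ratio of -1.75, the third lowest. miR-210-3p, at -0.84, was the 12th lowest and short of the threshold. The median of all 208 was 0.28 in the other direction, so relative to it the arms stood at -1.12 and -2.03. Scaling by median ratio (-1.13 and -2.03) or to the miRNA reads (-1.36 and -2.42) took both arms further from 0.

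Both arms are rich in G and C, at 63.6% for miR-210-3p and 72.7% for miR-210-5p, and only 2 of the 208 had a higher GC content than miR-210-5p. Over these miRNAs the log2 ratio Mock over CC fell by 0.29 for every 10 percentage points of GC, whereas RR over CC changed by 0.02. With the linear trend removed (values at 50% GC left as they were), Mock over CC was -0.44 for miR-210-3p and -1.10 for miR-210-5p. Against the 39 miRNAs of 60% GC or more, whose median was -0.40, miR-210-5p was the lowest and 3 miRNAs lay below miR-210-3p. The parts of GC content and of the source of the erythroid-list reads in the level of miR-210 in Mock were not tested further.

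**Figure D2:**
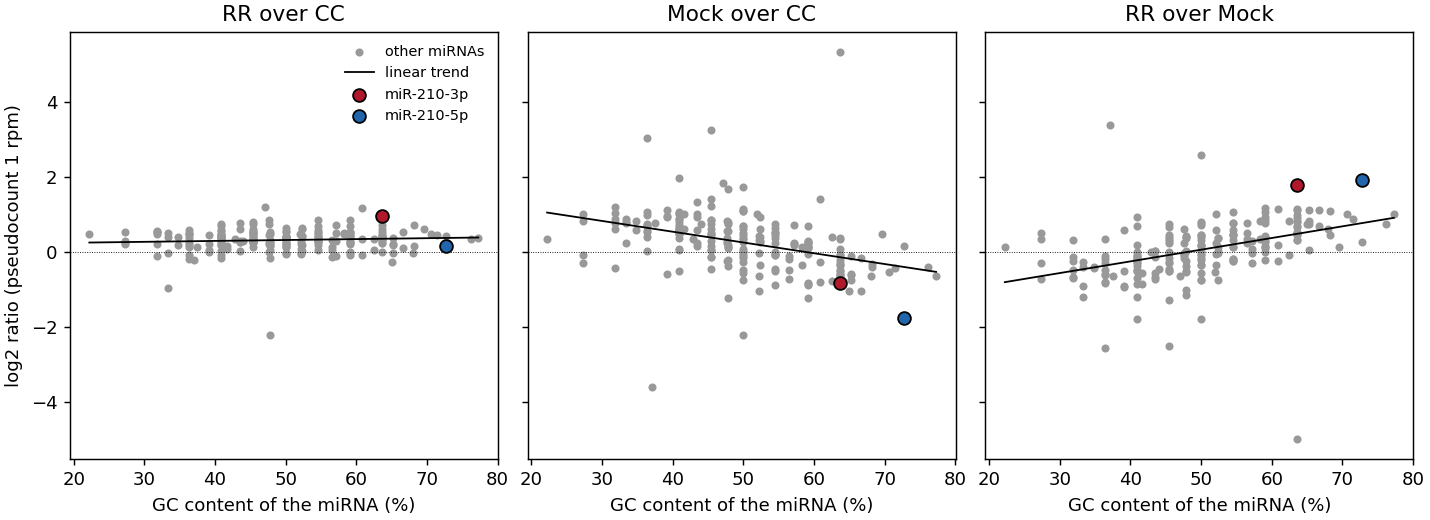
log2 ratio (1 rpm added) against GC content for 208 miRNAs, in the 3 comparisons, with a linear trend line; miR-210-3p is red and miR-210-5p blue. Both arms lie under the falling trend in Mock over CC (-0.84 and -1.75) and over the rising trend in RR over Mock (1.79 and 1.92), and miR-210-3p is near the top in RR over CC (0.96).

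RR over Mock compares daily exposures with 1 exposure. Here the arms were closest to each other, 3.53-fold higher in RR for miR-210-3p (3.16 to 3.96) and 4.44-fold for miR-210-5p (3.20 to 6.29), with intervals that overlap. They held adjoining places, the third highest (miR-210-5p, log2 ratio 1.92) and the fourth highest (miR-210-3p, 1.79) of the 208, behind miR-1248 and miR-320b. Of the 208, 8.17% were past 2-fold in RR and 85.1% had an interval that excluded 1. Among the 39 GC-rich miRNAs, 0 were above miR-210-5p and miR-210-5p alone was above miR-210-3p, beside a median of 0.74. Without the GC trend the log2 ratios were 1.37 and 1.21, still past 2-fold.

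The balance of the arms needs no scaling, since both are counted in the same library. CC had 4.09 reads of miR-210-3p for each read of miR-210-5p, RR had 7.09 and Mock had 8.91. As a share of the reads of both arms, miR-210-3p made up 80.4% in CC (exact 95% binomial interval 77.6% to 82.9%), 87.6% in RR (85.9% to 89.2%) and 89.9% in Mock (86.7% to 92.5%). CC lies below both irradiated libraries, which overlap. The 3p over 5p ratio was 1.73 times higher in RR than in CC (exact conditional interval 1.38 to 2.17) and 2.18 times higher in Mock than in CC (1.52 to 3.16). For RR over Mock it was 0.795 (0.551 to 1.13), which includes no change. CC enters both of the first comparisons, so they are not independent of each other.

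A shift of this kind was not rare. Of 88 hairpins with both arms at a mean of 1 rpm or more, the interval excluded 1 in 28.4% for RR over CC, in 45.5% for RR over Mock and in 46.6% for Mock over CC. By size, the RR over CC shift of miR-210, 0.79 on the log2 scale, was exceeded towards 3p by 5 hairpins and lay above 82. The 3 largest of those 5 were miR-505 (4.76 times, 1.62 to 14.3), miR-34c (2.86 times, 1.01 to 9.26) and miR-877 (1.91 times, 1.22 to 2.99). In CC and RR the 3p arm had 14 and 23 reads for miR-505, 6 and 23 for miR-34c, and 51 and 77 for miR-877. A shift of 2-fold or more towards 3p was seen in 2.27% of hairpins and one towards 5p in 5.68%, and miR-210 was in neither group.

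In Mock over CC the shift of miR-210, 1.12, was exceeded by 7 hairpins and was one of the 10.2% that reached 2-fold towards 3p, beside 17% towards 5p. The 3 largest were miR-505 (3.11 times, 0.996 to 9.82), miR-27b (3.05 times, 2.17 to 4.34) and miR-205 (2.91 times, 1.77 to 4.86). miR-210-3p has less GC than miR-210-5p. Across the 88 hairpins the Mock over CC shift followed the GC difference of the arms, with a Spearman correlation of -0.35, given as a description over hairpins of the same libraries, against -0.01 for RR over CC. With the GC trend of the 208 single miRNAs removed from each arm, the shift of miR-210 was 0.86 in Mock over CC and 0.81 in RR over CC. No trend was fitted over the hairpins. For RR over Mock, where 13.6% of hairpins reached 2-fold towards 3p and 4.55% towards 5p, 62 hairpins lay above miR-210 and 25 below. The 3p over 5p ratio fell furthest there in miR-320a (0.314 times, 0.0929 to 0.851), miR-27b (0.434 times) and miR-340 (0.444 times).

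Where both arms had a mean of 10 rpm or more, a limit chosen after the values were seen, 38 hairpins remained for comparison. In RR over CC miR-210 then had the highest value of the 38, followed by miR-296 at 1.54 times (1.22 to 1.95), an interval that overlaps that of miR-210. In Mock over CC only miR-339 was above it, at 2.31 times. In RR over Mock 29 of the 38 lay above miR-210 and 8 below.

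**Figure D3:**
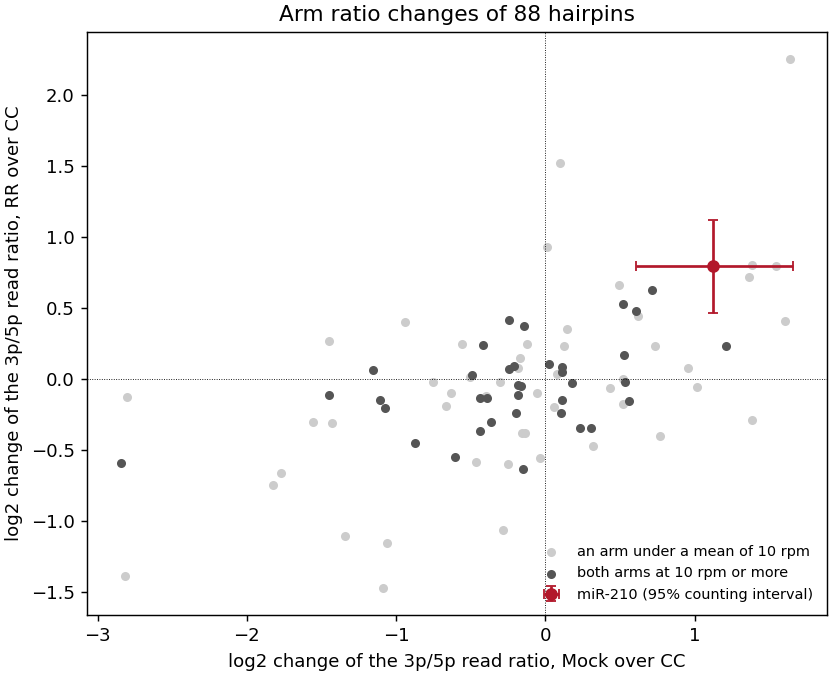
Change of the 3p over 5p read ratio of 88 hairpins on the log2 scale, Mock over CC on the horizontal and RR over CC on the vertical axis; both axes share the CC library. miR-210 is red with exact 95% conditional intervals, hairpins with both arms at a mean of 10 rpm or more are dark and the others pale. miR-210 lies at 1.12 and 0.79, above each of the dark points on the vertical axis.

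The miRNAs nearest to each arm in the pair of log2 ratios Mock over CC and RR over CC were found by Euclidean distance over the 208, a likeness that rests on 3 libraries. For miR-210-3p these were miR-615-3p (distance 0.47), miR-296-3p (0.50), miR-185-3p (0.54), miR-1275 (0.55) and miR-339-5p (0.58). Of the 208, 39 have a GC content of 60% or more, and all 5 are among these, from 63.6% to 70.6%. Their RR over CC ratios were 1.31 to 1.66, which follows from the choice, since nearness was measured in that ratio. The median log2 ratio of all 208 was 0.36 in the same direction. For miR-210-5p they were miR-320b (0.50), miR-193b-3p (0.57), miR-296-5p (0.73), miR-139-5p (0.74) and miR-877-5p (0.85), with RR over CC ratios of 0.815 to 1.30. GC content of these 5 ran from 50% to 66.7%, with miR-320b, miR-193b-3p and miR-139-5p under 60%. The arms were not close to each other by this measure: miR-210-5p was in place 91 from miR-210-3p, at a distance of 1.21.

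**Figure D4:**
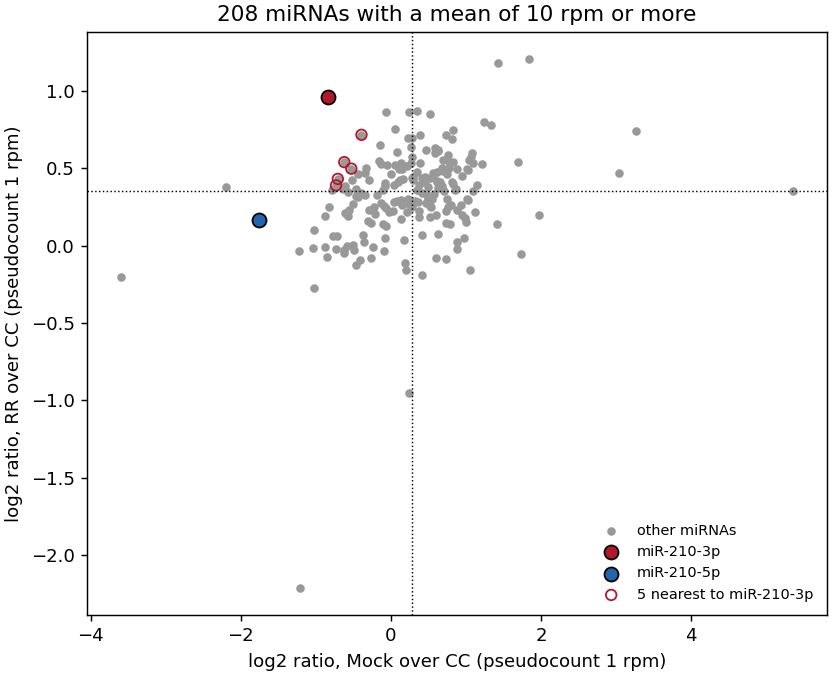
log2 ratios of 208 miRNAs (1 rpm added), Mock over CC on the horizontal and RR over CC on the vertical axis; both share the CC library, and dotted lines are medians (0.28 and 0.36). miR-210-3p (red) lies at -0.84 and 0.96, outside the main cloud, its 5 nearest miRNAs are ringed, and miR-210-5p (blue) lies at -1.75 and 0.17.

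Other miRNAs tied to hypoxia in earlier work had a median close to that of all miRNAs in RR over CC. Of 17 miRNAs reported as hypoxia-responsive, 13 had a mean of 10 rpm or more, among them near-identical relatives such as miR-23a-3p and miR-23b-3p. In RR over CC 0 of the 13 were higher and 0 lower by 2-fold or more, close to the 0.962% and 0.481% of the 208, with log2 ratios of -0.16 to 0.61, all below miR-210-3p, and a median of 0.36 beside 0.36 for all 208. The highest were miR-27a-3p (1.53-fold), miR-24-3p (1.51-fold), miR-103a-3p (1.46-fold) and miR-21-5p (1.39-fold).

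In Mock over CC the median of these 13 lay on the other side of 0 from miR-210. It was 0.70 beside 0.28 for all. With median-ratio scaling it was 0.41 beside -0.01 for all, and when scaled to the miRNA reads 0.21 beside -0.22. Of the 13, 2 were higher by 2-fold or more, beside 12% of the 208, and all 13 lay above miR-210-3p. These 2 were miR-21-5p, at 4475 rpm in CC and 36929 in Mock, and miR-103a-3p, at 128 and 416 rpm. In RR over Mock the same 2 were lower by 2-fold or more, beside 4.81% of the 208, with a median of -0.35 for the 13 and 0.06 for all. Once the GC trend was removed, these medians became 0.36, 0.49 and -0.26 in the 3 comparisons, beside 0.34, 0.32 and 0.08 for all.

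Of 12 miRNAs reported to repress components of HIF, 6 were measured at 10 rpm or more: miR-17-5p, miR-18a-5p, miR-20a-5p, miR-22-3p, miR-155-5p, which is on both lists, and miR-429. In RR over CC 0 of 6 passed 2-fold either way (0.962% and 0.481% of the 208), and the median was 0.30 beside 0.36 for all, with miR-22-3p at 1.38-fold (1.30 to 1.46), miR-429 at 1.37-fold, miR-17-5p at 1.26-fold and miR-18a-5p at 1.22-fold (0.923 to 1.62). In Mock over CC 1 of 6 was higher by 2-fold or more, miR-20a-5p at 2.18-fold (2.11 to 2.26), beside 12% of the 208. The median was 0.77 beside 0.28 for all. It was 0.47 beside -0.01 with median-ratio scaling, 0.26 beside -0.22 when scaled to the miRNA reads and 0.56 beside 0.32 without the GC trend. In RR over Mock 0 of 6 passed either way, beside 8.17% higher and 4.81% lower of the 208. The median there was -0.46 beside 0.06 for all, and -0.22 without the GC trend, beside 0.08.

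Neighbouring miRNA genes gave almost no reads. RefSeq lists 7 other hairpins within 5 Mb of MIR210, with 11 mature miRNAs, of which 3 are in the table. In the order CC, Mock, RR, miR-6743-3p had 3, 2 and 1 reads. miR-4687-5p had 1, 0 and 3 reads, and miR-4687-3p had 1, 1 and 3. Each count is at or under 3 reads, the number taken as the detection floor, so no ratio is given for them.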

How the data were processed

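Per the labels' protocols, adapters were ligated to total RNA of 3 CAL-27 samples, and products in the small RNA size range were sequenced on a NovaSeq. The submitters' processing notes list Bowtie and GRCh38 without saying what each was used for. Not given in the sources used here: the miRNA reference, mismatches and the handling of reads with several matches. The deposited values, called TPM by the authors, behave as RPM: 100% of the values in each library were whole multiples, within 0.01 of a read, of 1 step whatever the length of the miRNA. Whole reads were recovered from that step (total 10473400 in RR, 10769990 in CC and 10632785 in Mock). The deposited length in bases (unit other) was not used in a result. A count test could not be run on the recovered reads with 1 library per group.

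Columns were matched to libraries by the treatment tag. Computed were exact Poisson intervals of levels, exact Clopper-Pearson intervals of ratios and shares, exact conditional intervals of arm ratios, and log2 ratios with a pseudocount of 1 rpm. An interval compares 2 libraries and not the conditions. Counts past 2-fold were taken over miRNAs whose mean reached 10 rpm. Named are both arms, miRNAs with reads from hairpins within 5 Mb, miRNAs of the same seed, the 5 nearest in pattern to each arm, up to 3 hairpins per comparison whose arm shift matched or exceeded that of miR-210, and list members past 2-fold or else up to 4 by RR over CC. miR-3182, miR-550a-5p, miR-1248, miR-296, miR-339 and miR-23b-3p were named after their values were seen. So were the squamous epithelial miR-205-5p, miR-200c-3p, miR-31-5p and miR-203a-3p. The erythroid miR-486-5p, miR-451a, miR-144-3p and miR-144-5p, and miR-1-3p, miR-206 and miR-199a-3p, were also named after their values were seen. The members, lists and rules were chosen with earlier results of these data known. Lists of erythroid, muscle, endothelial, leukocyte, mesenchymal, hepatic and squamous epithelial miRNAs were summed. Alternatives were other pseudocounts, filters and scalings and removal of a linear GC trend. Scripts were tested on simulated reads. Tools were scipy 1.17.1, numpy 2.4.6, pandas 2.3.3, RNAfold of ViennaRNA 2.7.2 and matplotlib 3.10.9, under Python 3.11.15.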

Additional observations from a re-analysis of the deposited data

How the results depend on the processing

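No paired analysis was possible because each group has 1 library, and no library could be left out for the same reason. On the log2 scale, median-ratio scaling of the libraries gave 0.58 for miR-210-3p and -0.19 for miR-210-5p in RR over CC and -1.13 for miR-210-3p in Mock over CC. Scaled to the miRNA reads alone, miR-210-3p was 0.63 in RR over CC, -1.36 in Mock over CC and 1.99 in RR over Mock, and miR-210-5p was -0.16 in RR over CC and -2.42 in Mock over CC. With the GC trend removed, miR-210-3p was -0.44 in Mock over CC and 1.37 in RR over Mock, and miR-210-5p was -1.10 and 1.21. A pseudocount of 10 rpm gave 1.59 for miR-210-3p in RR over Mock, -0.90 for miR-210-5p in Mock over CC and 1.02 in RR over Mock. It also took the log2 change of the arm ratio to 0.19 in Mock over CC and to 0.57 in RR over Mock, as it weighs on the scarcer arm. The remaining 22 of 39 values for miR-210 moved by less than their counting interval.

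Counts past 2-fold, higher and lower, depended on these choices. In RR over CC (2 and 1), 0 were higher with a pseudocount of 10, 5 and 2 passed at a mean of 1 rpm or more, 6 and 2 with no filter, 0 and 0 at a mean of 100 rpm or more, and 0 and 2 when scaled to the miRNA reads or by median ratio. In Mock over CC (25 and 8) they were 13 and 3 with a pseudocount of 10, 44 and 13 at a mean of 1 rpm, 46 and 14 with no filter, 11 and 1 at 100 rpm, 10 and 18 when scaled by median ratio, 7 and 34 by the miRNA reads, and 4 were lower without the GC trend. In RR over Mock (17 and 10), 8 were higher with a pseudocount of 10, 31 and 19 passed at a mean of 1 rpm, 33 and 24 with no filter, 6 and 5 at 100 rpm, 28 were higher when scaled to the miRNA reads and 7 without the GC trend. Neither arm reaches a mean of 100 rpm. Medians of the hypoxia-responsive list and the HIF repressors in RR over CC went to -0.02 and -0.07 with median-ratio scaling, which took the median of all 208 to -0.02. The 45 reads of miR-210-5p in Mock limit the precision of every ratio that uses them.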

Other observations

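Summed levels of the other marker lists are given as values. In the order RR, CC, Mock, the 4 muscle miRNAs summed to 409, 341 and 345 rpm, and the 2 endothelial miRNAs to 81.9, 55.2 and 66.9 rpm. Of 4 leukocyte miRNAs 3 are in the table, with sums of 0.0955, 0.0929 and 1.98 rpm. Of 4 mesenchymal miRNAs 2 are listed under their own name, with sums of 6.49, 6.22 and 4.51 rpm. The mesenchymal miR-199a-3p is listed jointly with miR-199b-3p and was left out of these sums. That joint entry was highest in Mock, where the sum was lowest. The hepatic miR-122-5p stood at 2.96, 4.46 and 5.45 rpm.

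Of every 1000000 reads assigned to a listed miRNA, miR-210-3p took 650 in RR, 419 in CC and 163 in Mock. For miR-210-5p these were 91.7, 102 and 18.3.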
